A study of Homo sapiens with 4 samples.

Results

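Imprinted genes are genes read mainly from a single parental copy, because the other copy was marked by DNA methylation in the egg or the sperm. The mark sits at imprinting control regions, where the zinc finger proteins ZFP57 and ZNF445 bind the methylated copy and bring TRIM28, SETDB1 and DNA methyltransferases, which keep it methylated through cell division. Many imprinted genes restrain or promote growth, and loss of imprinting is common in colon cancer. The genes described here are 36 imprinted genes outside the H19 and IGF2 pair, taken by gene symbol from a list, out of 60766 features in the files. They fall into 18 loci. From textbook knowledge 18 are read from the paternal copy and 6 from the maternal copy, 10 depend on isoform or tissue or are disputed, and 2 (L3MBTL4 and RB1CC1) were not assigned.

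RNA was sequenced from 4 samples of HCT116, an established human colon carcinoma cell line, all grown in RPMI1640 medium with fetal bovine serum. There were 2 control samples and 2 samples in which ARID1A, which helps a SWI/SNF remodeler bind DNA, was knocked down by a short hairpin RNA (labelled shARID1A). The title of the series names TRIM28 as a protein that ARID1A recruits to heterochromatin, and the question asked here is how imprinted genes differed between the control and knockdown samples. The labels used here do not say whether the control cells carried a hairpin, which hairpin was used, or whether the samples of a group came from separate cultures, so p-values measure only the spread among these 4 samples, and that spread may be technical. Values are FPKM (fragments counted per transcript length and per library depth), summed over both parental copies, so no value tells which copy was read. In bulk samples, fewer cells of a type and less RNA per cell cannot be told apart.

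ARID1A was 11.1 and 11.4 FPKM in the control samples and 7.05 and 6.13 FPKM in the knockdown samples, a log2 change of -0.69 (SE 0.077, adjusted p = 0.0044, limma). Libraries held an estimated 69000000 to 75750000 fragments, and mitochondrial genes made up 4.29% and 4.35% of all FPKM in the control samples and 5.65% and 6.04% in the knockdown samples. Of 12 colon epithelial markers 7 had a mean of at least 1 FPKM, TFF3 and CDX1 were listed at 0, and the summed level was 2922 to 3027 FPKM in the control samples and 4018 to 4173 FPKM in the knockdown samples. KRT8, KRT18, KRT19 and KRT20 rose, while EPCAM fell from 312 and 312 FPKM to 147 and 141 FPKM. None of 10 leukocyte markers had a mean of 1 FPKM, and 5 of them were listed at 0 in all samples. Neural markers matter here because many imprinted genes are read in brain: 3 of 10 had a mean of at least 1 FPKM, with a summed level of 139 to 144 FPKM in the control samples and 129 to 131 FPKM in the knockdown samples. Of these, SYT1 fell, TUBB3 rose and MAP2 did not pass the test. The fibroblast sum was 3.78 to 5.07 FPKM in the control samples and 6.24 to 6.43 FPKM in the knockdown samples, and the endothelial sum stayed between 3.20 and 3.99 FPKM. Nearly all of the fibroblast sum came from COL1A1, which did not pass the test (adjusted p = 0.0518, limma), and most of the endothelial sum from ESAM. The part of these shifts in the results on imprinted genes was not tested.

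Of the 36 imprinted genes, 23 had a mean of at least 1 FPKM over the 4 samples and were tested; 6 had lower values above 0, and 7 were listed at 0 in every sample. The test was limma on log2(FPKM + 1), with p-values adjusted over all 13605 features tested, and the log2 changes below are knockdown minus control on that scale, where changes of low genes come out too small. At an adjusted p under 0.05, 10 of the 23 were called (43.5%), where 37.1% of all features tested were called. Of the 23, 3 rose (13.04%, against 18.2% of all features) and 7 fell (30.4%, against 18.9%). The lowest value of a group lay above the highest of the other in 19 of the 23 (82.6%), against 72.3% of all features: 6 were higher in the knockdown samples (26.1%, against 35.8%) and 13 were lower (56.5%, against 36.5%). The median log2 change of the 23 was -0.15, against 0.00 over all features, and the median size without sign was 0.19, against 0.18. The difference of these shares from those of the whole table was not tested. The calls numbered 4 when either control sample was left out and 5 when either knockdown sample was left out; GRB10 and SGCE were called under all 14 alternatives tried. With no filter on low values, GRB10, SGCE and MEST were still called and the other 7 of the 10 were not. Every one of the 23 passed the filter in both groups.

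**Figure D1:**
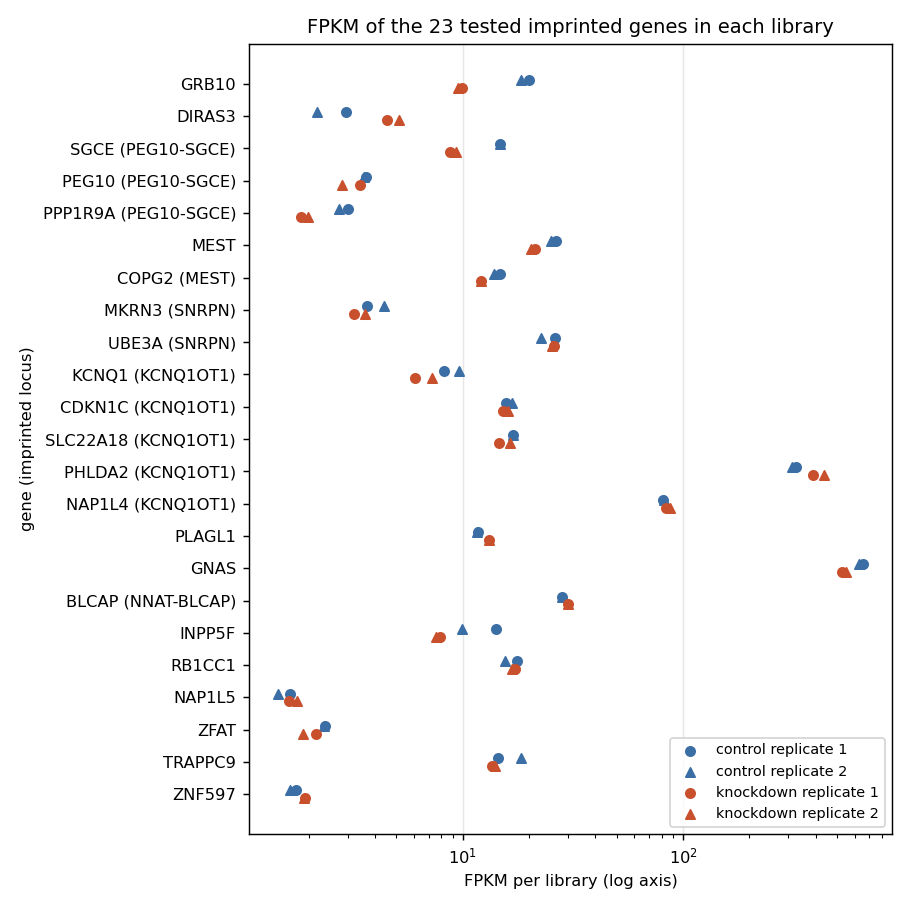
FPKM of the imprinted genes that were tested, in each of the 4 samples, on a log axis; each point is 1 sample, coloured by group. GNAS and PHLDA2 stand highest and NAP1L5, ZNF597 and ZFAT lowest, and GRB10, SGCE and DIRAS3 show the widest gaps between the groups.

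The expressed imprinted genes spanned a wide range of levels per length. GNAS, the stimulatory G protein alpha subunit that couples receptors to cyclic AMP, had the highest mean at 590 FPKM, followed by PHLDA2 at 365 FPKM. NAP1L5 had the lowest mean of the tested genes, 1.62 FPKM. By parental copy, 7 of the 18 paternally read genes were tested, of which 2 rose (DIRAS3 and PLAGL1) and 2 fell (SGCE and MEST), with a median log2 change of -0.17. Of the 6 maternally read genes 5 were tested, 1 rose (PHLDA2) and none fell, with a median of -0.05. All 10 genes with an isoform-dependent, tissue-dependent or disputed imprint were tested, of which none rose and 5 fell (GRB10, PPP1R9A, INPP5F, COPG2 and GNAS), with a median of -0.22. Of all features tested, 37.1% were called, 18.2% rose and 18.9% fell. With 7, 5 and 10 genes tested, these classes are too small to read a direction of their own from the counts. The difference between these classes, or of a class from all features, was not tested.

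**Figure D2:**
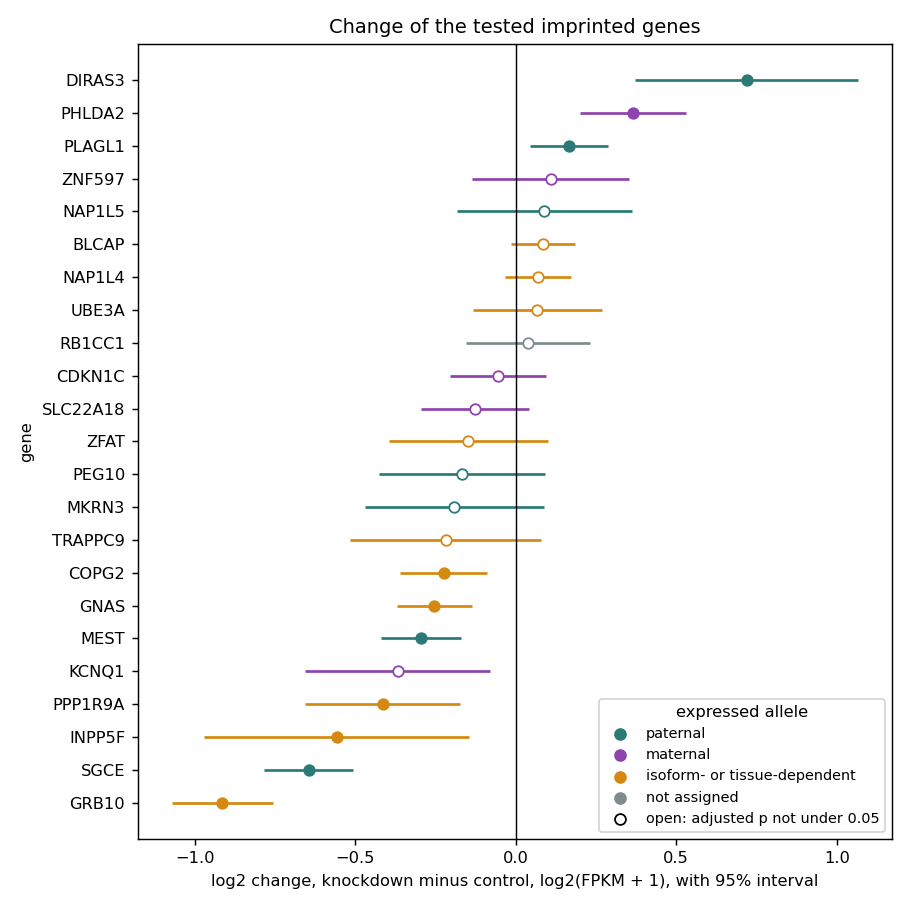
Log2 change (knockdown minus control, on log2(FPKM + 1)) of the 23 tested imprinted genes, with 95% intervals from limma that are not adjusted for the number of genes; filled points have an adjusted p under 0.05. The values run from -0.91 for GRB10 to 0.72 for DIRAS3.

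GRB10 fell the most. It encodes an adaptor that binds the insulin and IGF1 receptors and dampens their signalling, and its imprint depends on the tissue and promoter. In the control samples GRB10 (GRCh38 chr7:50590063-50793462) was at 20.02 and 18.4 FPKM, and in the knockdown samples at 9.92 and 9.54 FPKM. Both knockdown samples lay well below both control samples, and the ratio of the group means was 1.98-fold lower, from 19.2 ± 1.12 to 9.73 ± 0.272 FPKM (SD, n = 2 each). The log2 change was -0.91 (SE 0.060, 95% interval -1.07 to -0.76, adjusted p = 0.0013, limma).

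GRB10 has several promoters that differ in CpG, the dinucleotide that is methylated at imprints: its 5 RefSeq windows held 44, 49, 24, 3 and 4 CpG, and only the window with 44 held the hexamer described next. RefSeq promoter windows (GRCh38.p14, 250 bases before to 50 after a start) were matched by symbol for 22 of the 36 genes, 54 entries at 53 distinct positions, since SNRPN and SNURF share a window; PEG10, SGCE, PEG3, ZIM2, CDKN1C, KCNQ1, KCNQ1OT1, PHLDA2, SLC22A18, DLK1, NNAT, RB1CC1, ZFAT and TRAPPC9 had no entry in the table. The ZFP57 hexamer TGCCGC, searched on both strands (GCGGCA on the other), was present in 19 of the 53 windows (35.8%) and in 16.7% of all 34943 distinct windows of that length. Windows of the imprinted genes held a median of 18 CpG and 60.3% GC, against 14 CpG and 58.7% over all windows. The hexamer was present in 8 of 26 windows of called genes (30.8%), 5 of 13 windows of tested genes that were not called (38.5%) and 6 of 14 windows of genes below 1 FPKM (42.9%). Windows of a gene overlap and are not independent, and a match of letters is a description, not a bound site. The 250 bases before a start are printed for 4 genes that hold the hexamer and differ in level, to show it in its surroundings, 5′ to 3′ on the gene's strand with the hexamer in capitals: GRB10 (chr7:50793454-50793703, minus strand), which fell; NAP1L5 (chr4:88697830-88698079, minus strand), a nucleosome assembly protein family gene that was not called; NDN (chr15:23687306-23687555, minus strand), listed at 0; and MEG3 (chr14:100825858-100826107, plus strand), near 0.
GRB10: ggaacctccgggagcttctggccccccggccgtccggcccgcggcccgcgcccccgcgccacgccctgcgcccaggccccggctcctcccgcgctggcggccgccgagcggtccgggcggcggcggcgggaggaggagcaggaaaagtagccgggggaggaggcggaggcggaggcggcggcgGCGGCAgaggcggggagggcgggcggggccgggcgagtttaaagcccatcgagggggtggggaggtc
NAP1L5: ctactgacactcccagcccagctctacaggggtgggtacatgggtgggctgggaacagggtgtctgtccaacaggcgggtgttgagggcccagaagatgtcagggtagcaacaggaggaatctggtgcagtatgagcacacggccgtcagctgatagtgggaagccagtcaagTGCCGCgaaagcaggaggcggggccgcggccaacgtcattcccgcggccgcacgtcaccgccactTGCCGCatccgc
NDN: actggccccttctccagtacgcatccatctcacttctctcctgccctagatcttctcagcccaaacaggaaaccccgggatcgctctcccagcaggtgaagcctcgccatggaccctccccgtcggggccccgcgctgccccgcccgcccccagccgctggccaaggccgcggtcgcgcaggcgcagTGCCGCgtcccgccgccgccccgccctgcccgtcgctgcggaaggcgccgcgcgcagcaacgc
MEG3: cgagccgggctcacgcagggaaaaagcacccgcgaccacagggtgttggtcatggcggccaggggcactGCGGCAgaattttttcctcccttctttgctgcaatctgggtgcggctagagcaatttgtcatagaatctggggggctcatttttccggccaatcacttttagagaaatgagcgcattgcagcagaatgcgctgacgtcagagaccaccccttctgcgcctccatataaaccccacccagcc
The stretch of GRB10 holds 37 CpG, that of NDN 30, that of NAP1L5 16 and that of MEG3 13. The hexamer occurs in 2 places in the NAP1L5 stretch and in 1 place in each of the others. No binding or methylation was measured in these samples.

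At the PEG10 and SGCE locus on chromosome 7, SGCE and PPP1R9A fell and PEG10 did not pass the test. SGCE (chr7:94524204-94656572), which encodes epsilon-sarcoglycan, a membrane protein mutated in myoclonus-dystonia, was at 14.7 and 14.7 FPKM in the control samples and 8.78 and 9.30 FPKM in the knockdown samples. The groups did not overlap, and the log2 change was -0.65 (SE 0.053, 95% interval -0.78 to -0.51, adjusted p = 0.0021, limma). PEG10 (chr7:94656325-94669695), a retrotransposon-derived gag-like gene needed for the placenta, starts from the same divergent promoter region and overlaps SGCE by 248 bases. PEG10 was at 3.65 and 3.57 FPKM in the control samples and 3.41 and 2.82 FPKM in the knockdown samples, a log2 change of -0.17 (95% interval -0.43 to 0.09, adjusted p = 0.248, limma). The ratio of SGCE to PEG10 was 4.03 and 4.12 in the control samples and 2.57 and 3.30 in the knockdown samples, which do not overlap; the exact permutation p, two-sided, was 0.333, the smallest that 2 against 2 samples allow. PPP1R9A (chr7:94907202-95296415), neurabin, an actin-binding scaffold of protein phosphatase 1, was at 3.02 and 2.74 FPKM in the control samples and 1.84 and 1.98 FPKM in the knockdown samples. Its log2 change was -0.41 (SE 0.093, adjusted p = 0.0266, limma), and the call was lost without any single library (adjusted p 0.0664 to 0.115). SGCE also shares 32816 bases with CASD1 on the other strand, whose mean was 2.58 FPKM, and the use of strand in the authors' quantification is not given in the sources used here.

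At the MEST locus, both measured coding genes fell by small amounts. MEST (chr7:130486171-130506465), a paternally read gene of the alpha/beta hydrolase fold family, was at 26.5 and 25.2 FPKM in the control samples and 21.2 and 20.5 FPKM in the knockdown samples, with a log2 change of -0.30 (SE 0.048, adjusted p = 0.0116, limma). COPG2 (chr7:130506238-130668748), a coatomer subunit whose 3′ end meets that of MEST, was at 14.7 and 13.9 FPKM in the control samples and 12.1 and 12.1 FPKM in the knockdown samples. COPG2 had a log2 change of -0.22 (SE 0.052, adjusted p = 0.0293, limma). The ratio of MEST to COPG2 was 1.80 and 1.81 in the control samples and 1.75 and 1.70 in the knockdown samples. That is a small shift in which the groups did not overlap (exact permutation p = 0.333, the smallest possible). MEST was no longer called without control replicate 1 (0.0687). COPG2 was no longer called without any single library (0.0712 to 0.126). MESTIT1, an antisense RNA that lies in 4863 bases shared with MEST, was at 0.0077 and 0.0074 FPKM in the control samples, listed at 0 in knockdown replicate 1 and at 0.0035 FPKM in knockdown replicate 2.

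INPP5F and GNAS also fell. INPP5F (chr10:119726042-119829147), an inositol phosphatase with an imprinted brain isoform, was at 14.1 and 9.95 FPKM in the control samples and 7.89 and 7.59 FPKM in the knockdown samples. The control samples of INPP5F differed from each other by more than the lower of them differed from the knockdown samples. The log2 change was -0.56 (SE 0.158, 95% interval -0.97 to -0.14, adjusted p = 0.0494, limma); without control replicate 1 it was -0.33 (adjusted p = 0.0646), and the call was also lost without knockdown replicate 1 (0.133) or 2 (0.141). It was lost as well with a filter of 0.1 FPKM (0.0740), quantile normalization (0.0547), a common median (0.0501) and no variance trend (0.0721). GNAS (chr20:58839718-58911192) holds several promoters with paternal, maternal and biallelic transcripts, which gene-level FPKM adds up. GNAS was at 657 and 626 FPKM in the control samples and 524 and 551 FPKM in the knockdown samples, a log2 change of -0.25 (SE 0.045, adjusted p = 0.0144, limma). Its groups did not overlap, and the call was lost without control replicate 1 (0.0959) or 2 (0.0609).

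DIRAS3, PHLDA2 and PLAGL1 rose. DIRAS3 (chr1:68045886-68051631), a small GTPase also called ARHI that restrains growth, was at 2.96 and 2.17 FPKM in the control samples and 4.55 and 5.13 FPKM in the knockdown samples. Both knockdown samples lay above both control samples, with group means of 2.57 ± 0.554 and 4.84 ± 0.411 FPKM (SD, n = 2 each), a ratio of 1.89. The log2 change of DIRAS3 was 0.72 (SE 0.133, 95% interval 0.37 to 1.07, adjusted p = 0.0162, limma), and the call was lost without control replicate 2 (0.0511), knockdown replicate 1 (0.0504) or knockdown replicate 2 (0.0650). PLAGL1 (chr6:143940300-144064599), a zinc finger transcription factor also called ZAC1, was at 11.8 and 11.6 FPKM in the control samples and 13.2 and 13.2 FPKM in the knockdown samples. That is a log2 change of 0.17 (SE 0.047, adjusted p = 0.0479, limma). The call was lost without any single library (0.135 to 0.170), with a filter of 0.1 FPKM (0.0678) and without a variance trend (0.0558).

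PHLDA2 was the only member of the KCNQ1OT1 domain on chromosome 11 to pass the test. In this domain the paternally read antisense RNA KCNQ1OT1 is known to silence maternally read genes nearby. PHLDA2 (chr11:2928273-2929420), a pleckstrin homology protein that limits placental growth, was at 324 and 313 FPKM in the control samples and 388 and 434 FPKM in the knockdown samples. Its log2 change was 0.37 (SE 0.063, 95% interval 0.20 to 0.53, adjusted p = 0.0134, limma), and the call was lost without control replicate 1 (0.0658) or 2 (0.0825). CDKN1C, which encodes the cyclin-dependent kinase inhibitor p57, was at 15.7 and 16.8 FPKM in the control samples and 15.2 and 16.04 FPKM in the knockdown samples, and these groups overlapped (log2 change -0.05, adjusted p = 0.495, limma). The ratio of PHLDA2 to CDKN1C was 20.6 and 18.6 in the control samples and 25.6 and 27.1 in the knockdown samples, so the pair changed unequally in these samples (exact permutation p = 0.333, the smallest possible).

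KCNQ1, a potassium channel, was at 8.24 and 9.57 FPKM in the control samples and 6.07 and 7.29 FPKM in the knockdown samples. Its groups did not overlap, but the log2 change of -0.37 missed the threshold (95% interval -0.66 to -0.08, adjusted p = 0.0564, limma; 0.0458 with only genes of at least 5 FPKM tested). SLC22A18, a transporter, had a log2 change of -0.13 (adjusted p = 0.188) and NAP1L4, a nucleosome assembly protein, 0.07 (adjusted p = 0.236, both limma). KCNQ1OT1 itself was at 0.0093 and 0.0096 FPKM in the control samples and 0.0113 and 0.0150 FPKM in the knockdown samples. KCNQ1OT1 lies within KCNQ1 on the other strand over all its 91667 bases, so reads of the pair cannot be told apart without strand.

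**Figure D3:**
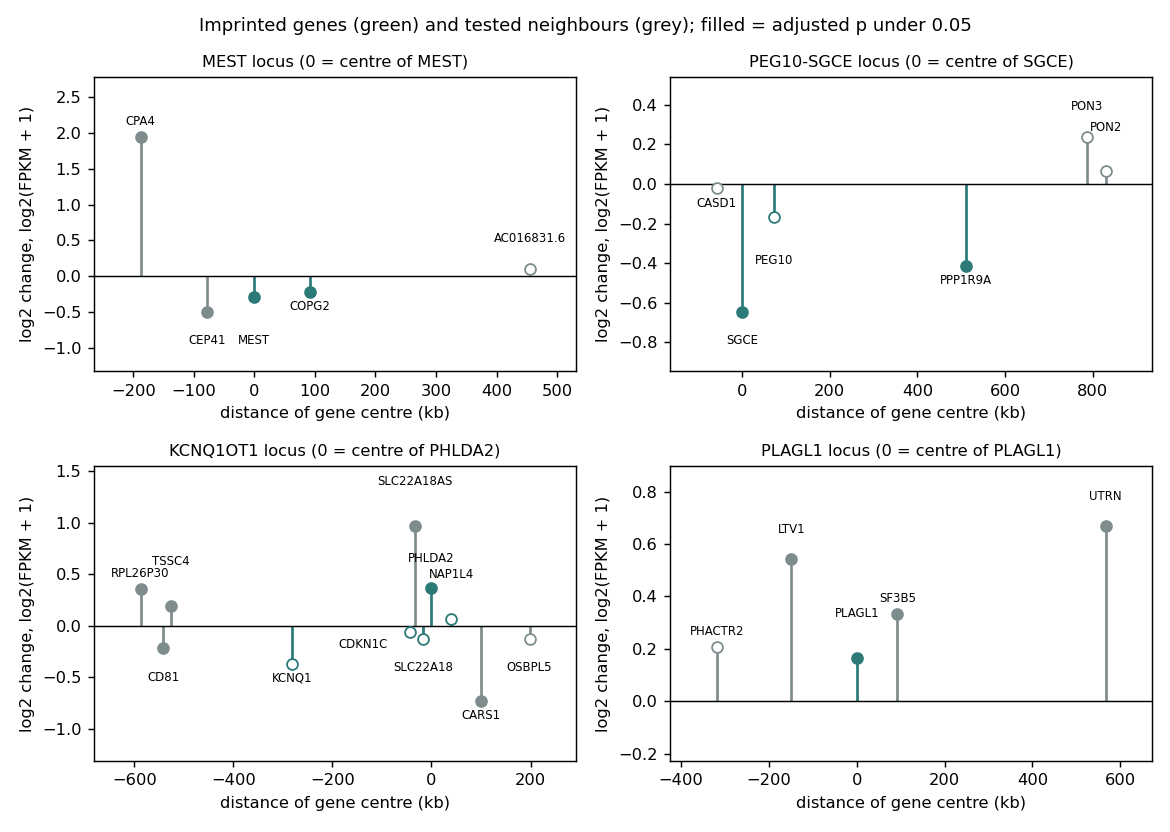
Log2 change of imprinted genes (green) and of tested neighbours within 250 kb (grey) at 4 loci, against the distance of the gene's centre from that of MEST, SGCE, PHLDA2 or PLAGL1; filled points have an adjusted p under 0.05. Neighbours at the PEG10 and SGCE locus are all open, and those at the KCNQ1OT1 domain are filled in both directions except OSBPL5, which is open.

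Genes that lie beside the called imprinted genes moved in both directions. Within 250 kb of the members of the 8 loci with a called gene there were 31 other tested features, of which 9 rose, 5 fell and 17 did not pass (45.2% called, against 37.1% of all features). CPA4, CD81, TSSC4 and OSBPL5 among them are also on the separate list of other imprinted genes given further on. All of these but OSBPL5 were called, so those calls are counted in both sets. At the GNAS locus none of 6 neighbours was called, and at the PEG10 and SGCE locus none of 3 (CASD1, PON3 and PON2). Beside PLAGL1, 3 of 4 neighbours rose: LTV1 by 0.54, SF3B5 by 0.33 and UTRN by 0.67 on the log2 scale. In the KCNQ1OT1 domain 5 of 6 were called, among them CARS1 at -0.73 and SLC22A18AS at 0.97. SLC22A18AS shares 3855 bases with SLC22A18 on the other strand, whose mean was 16.2 FPKM. Beside DIRAS3, WLS, which carries Wnt proteins to the cell surface, rose from 59.2 and 55.8 FPKM to 96.0 and 87.4 FPKM (log2 change 0.66, adjusted p = 0.0027, limma). The ratio of DIRAS3 to WLS overlapped between the groups (exact permutation p = 0.667). Beside MEST, CEP41 fell by 0.50 while CPA4, a carboxypeptidase gene that is itself imprinted, rose by 1.95. Beside GRB10, FIGNL1 fell by 0.40. The neighbours called numbered 7 without control replicate 2 and 9 without knockdown replicate 1, and the calls of SF3B5 (control replicate 2, adjusted p = 0.0769), UTRN (knockdown replicate 1, 0.0564), SLC22A18AS (knockdown replicate 2, 0.0550) and FIGNL1 (control replicate 2, 0.0530) were lost without the library named. RPL26P30, TSSC4 and MCMBP, also among the called neighbours, lost the call whichever library was left out, and SEC23IP and CD81 did so for some libraries. The neighbours given here by name were picked after their values were seen.

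In the Prader-Willi and Angelman domain on chromosome 15, neither tested gene was called. UBE3A, the ubiquitin ligase lost in Angelman syndrome and read from both copies outside neurons, was at 26.3 and 22.7 FPKM in the control samples and 25.9 and 25.4 FPKM in the knockdown samples. These groups overlapped (log2 change 0.07, adjusted p = 0.530, limma; -0.035 without control replicate 2). MKRN3, a paternally read ring finger gene that restrains puberty, was at 3.67 and 4.41 FPKM in the control samples and 3.20 and 3.61 FPKM in the knockdown samples (log2 change -0.19, adjusted p = 0.223, limma). SNRPN, SNURF, NDN and MAGEL2, all paternally read, were listed at 0 in all 4 samples. PEG3 and ZIM2 on chromosome 19 and L3MBTL4 were likewise listed at 0 in all 4 samples. A listed 0 can be a failed estimate in these files: EEF1A1, a translation factor gene that every cell uses, was also listed at 0 in all 4 samples, so these 7 genes cannot be called silent.

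The remaining tested genes did not pass the test. TRAPPC9, a trafficking complex subunit, was at 14.4 and 18.3 FPKM in the control samples and 13.6 and 14.1 FPKM in the knockdown samples (log2 change -0.22, adjusted p = 0.198, limma), and it passed only without control replicate 1 (adjusted p = 0.0415). ZFAT, a zinc finger gene, was at 2.37 and 2.34 FPKM in the control samples and 2.16 and 1.89 FPKM in the knockdown samples (adjusted p = 0.275, limma). BLCAP, the host gene of NNAT, had a log2 change of 0.09 (adjusted p = 0.143) and ZNF597, a zinc finger gene, 0.11 (0.406). NAP1L5, which lies within HERC3, had a log2 change of 0.09 (adjusted p = 0.537, all limma). NAP1L5 shares 1917 bases with HERC3 on the other strand, whose mean was 2.20 FPKM. ZNF597 shares 11091 bases with AC025283.2 on the other strand, at 0.886 FPKM, and the use of strand is not given. RB1CC1, the autophagy scaffold FIP200, was at 17.7 and 15.5 FPKM in the control samples and 17.3 and 16.8 FPKM in the knockdown samples, and its log2 change of 0.04 (adjusted p = 0.725, limma) turned to -0.055 without control replicate 2.

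The DLK1 and MEG3 domain on chromosome 14 holds DLK1, RTL1 and DIO3, read from the paternal copy, and MEG3, read from the maternal copy. DLK1, RTL1 and MEG3 each had a mean below 1 FPKM, and DIO3 is given further on with the other imprinted genes. DLK1 (chr14:100725705-100738224), a membrane ligand of the Notch family that holds back differentiation, was at 0.023 and 0.032 FPKM in the control samples and 0.474 and 0.490 FPKM in the knockdown samples. The knockdown samples lay far above the control samples, yet all 4 values lie under 1 FPKM. With the estimated depth and a transcript of 1324 bases, these values amount to about 4 fragments in the control samples together. The knockdown samples together come to about 75, a ratio of 17.5. On a transcript of 4722 bases the counts are about 17 and 321 fragments, a ratio of 17.6. Fragments are not replicates, so these ratios carry no measure of the spread among samples. DLK1 passes a lower filter of 0.1 FPKM only through the knockdown samples, where it is high, so no test is given for it. RTL1, a retrotransposon-derived gene, was listed at 0 in both control samples and was at 0.020 and 0.039 FPKM in the knockdown samples. MEG3, a noncoding RNA, was listed at 0 in both control samples and was at 0.057 and 0.0043 FPKM in the knockdown samples, so the knockdown samples differed widely between themselves.

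**Figure D4:**
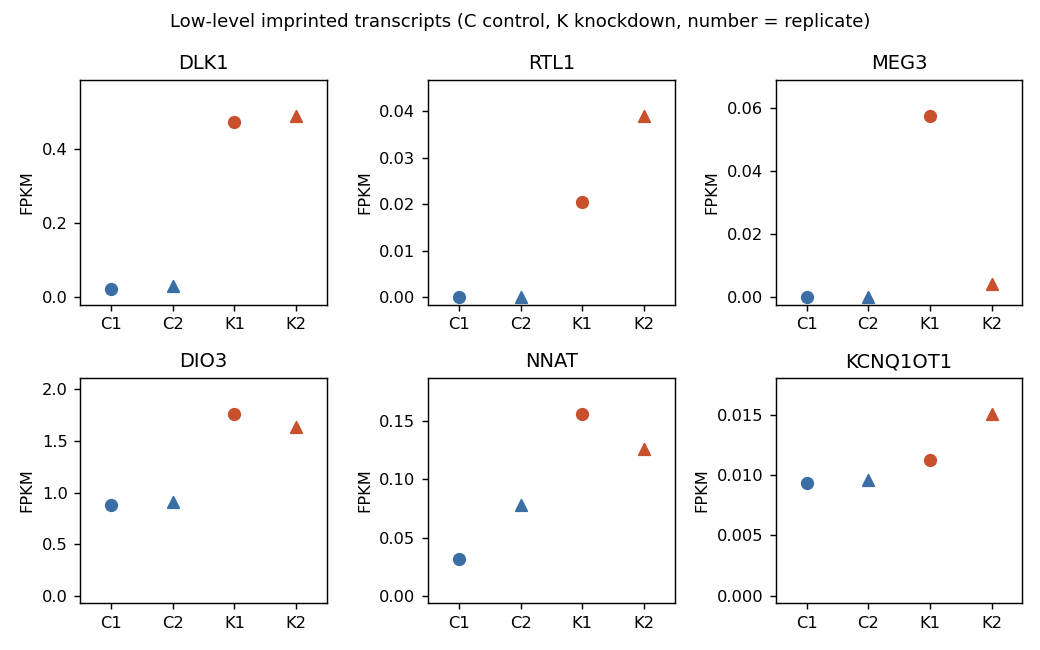
FPKM of DLK1, RTL1, MEG3, NNAT and KCNQ1OT1, whose means lay below 1, and of DIO3, another imprinted gene of the DLK1 domain, in each sample (C control, K knockdown, with the replicate number); each panel has its own linear axis. DLK1 stands at 0.474 and 0.490 in the knockdown samples, and MEG3 at 0.057 and 0.0043.

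NNAT, neuronatin, a paternally read gene inside BLCAP, was at 0.031 and 0.078 FPKM in the control samples and 0.156 and 0.126 FPKM in the knockdown samples. Those groups did not overlap, but BLCAP had a mean of 29.1 FPKM over the same stretch on the other strand, so reads of the pair cannot be told apart without strand.

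Other imprinted genes from a separate list, H19 and IGF2 among them, were set beside these values. Of 42 found in the files 19 had a mean of at least 1 FPKM, but H19, DIO3 and RASGRF1 reached it through only 1 of the groups, so they are given as values with no test. Of the other 16, 4 rose and 3 fell (43.8% called, against 37.1% of all features), with a median log2 change of -0.09. Those calls numbered 2 without control replicate 1, 1 without control replicate 2 and 4 without knockdown replicate 1. The median turned to 0.02 without knockdown replicate 1. H19, a maternally read noncoding RNA, was at 0.569 and 0.811 FPKM in the control samples and 31.4 and 31.03 FPKM in the knockdown samples (log2 change 4.26). IGF2, its paternally read neighbour and a growth factor, fell from 14.7 and 14.3 FPKM to 11.1 and 9.42 FPKM (log2 change -0.47, adjusted p = 0.0156, limma; 0.0820 without control replicate 1 and 0.0732 without control replicate 2). CPA4 rose from 13.6 and 12.2 FPKM to 52.5 and 52.8 FPKM (log2 change 1.95, adjusted p = 0.0003, limma). RASGRF1, an exchange factor for Ras, was at 1.72 and 2.03 FPKM in the control samples and 0.622 and 0.220 FPKM in the knockdown samples. DIO3, a thyroid hormone deiodinase, was at 0.879 and 0.912 FPKM in the control samples and 1.76 and 1.64 FPKM in the knockdown samples. For RASGRF1 and DIO3 the groups did not overlap, as in 72.3% of all features tested. Each passed the filter only through the group where it is high, so this is not a test.

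On a list of genes tied to imprint maintenance, SMCHD1 fell and CBX1 rose with the widest gaps between groups. The list also holds TET1, TET2, TET3, DNMT3L and CTCFL, so not every gene on it keeps imprints. Of 32 listed, 24 were tested, 2 rose (CBX1 and EHMT1) and 3 fell (SMCHD1, DNMT3B and DNMT1), so 20.8% were called, against 37.1% of all features, with a median log2 change of -0.04. The difference between those shares was not tested, and the calls numbered 2 when either control sample was left out and 3 when knockdown replicate 1 was. SMCHD1, a chromatin protein needed to silence some imprinted clusters, was at 15.7 and 14.6 FPKM in the control samples and 10.2 and 9.78 FPKM in the knockdown samples (log2 change -0.56, adjusted p = 0.0038, limma). CBX1, the heterochromatin protein HP1 beta, rose from 78.4 and 76.7 FPKM to 109 and 102 FPKM (log2 change 0.44, adjusted p = 0.0036, limma). DNMT1, the methyltransferase that copies methylation at replication, fell from 25.1 and 24.5 FPKM to 22.3 and 21.6 FPKM (log2 change -0.17, adjusted p = 0.0385, limma). The calls of DNMT1 (0.0806 to 0.161), DNMT3B (0.0860 to 0.155) and EHMT1 (0.0821 to 0.169) were lost without any single library.

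TRIM28, the corepressor brought to imprints by ZFP57 and ZNF445, did not pass the test. It was at 329 and 328 FPKM in the control samples and 325 and 325 FPKM in the knockdown samples (log2 change -0.01, adjusted p = 0.747, limma). After quantile normalization it was -0.13 (adjusted p = 0.0264). SETDB1, the histone methyltransferase that TRIM28 brings, was at 16.5 and 16.3 FPKM in the control samples and 15.1 and 12.8 FPKM in the knockdown samples (adjusted p = 0.0966, limma; 0.0336 without knockdown replicate 1). ZNF445 had an adjusted p of 0.598 and UHRF1, the partner of DNMT1, of 0.110 (both limma). ZFP57 was listed at 0 in 3 of the samples and was at 0.013 FPKM in control replicate 2.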

How the data were processed

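Per the submitters' processing notes, reads were aligned with STAR and quantified with Cufflinks on GRCh38; versions, annotation, filters and use of strand: not given in the sources used here. Deposited values were FPKM per feature, made by the authors for each library, with 60811 rows per table. Values under 1e-09 (2347) were set to 0, and 45 Y copies of pseudoautosomal features were dropped, leaving 60766. The imprinted genes and all lists were chosen with earlier results of these data known. Features with a mean of at least 1 FPKM over the 4 samples entered a limma fit (lmFit, eBayes with trend; limma 3.58.1, R 4.3.3) on log2(FPKM + 1), computed from the deposited FPKM with a pseudocount of 1, as control against knockdown, 2 samples each, with Benjamini-Hochberg adjustment over all 13605; a call is an adjusted p under 0.05. The fit was tested on simulated data. Depth was estimated from the steps of low FPKM values: 83.4% to 86.5% of the values used came out within 0.1 of a whole fragment number. All 36 genes are named, with ARID1A, TRIM28, SETDB1, ZFP57, ZNF445, DNMT1, UHRF1, H19 and IGF2, and the 5 called genes of largest change from each list (imprint maintenance and other imprinted genes). Alternatives covered the pseudocount, filter, normalization, variance trend, replicate block and each library left out; 2 samples a group limit the precision.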

Additional observations from a re-analysis of the deposited data

How the results depend on the processing

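Leaving out each library in turn, the features called numbered 2146 to 3368 in place of 5046, the imprinted genes called 4 to 5 in place of 10 (0 to 1 rose, 3 to 4 fell), the imprint maintenance genes called 2 to 4, the other imprinted genes called 2 to 7 and the neighbours called 7 to 10. The lone sample of a group is then assumed to vary like the other group. The range for the other imprinted genes also counts H19, DIO3 and RASGRF1 where they passed the filter, although no test is given for them. It is therefore not a range for the 16 other imprinted genes reported above. With no filter on low values, 2786 features were called. Of the imprinted genes, GRB10, SGCE and MEST were still called, while DIRAS3, PHLDA2 and PLAGL1 were not (adjusted p of 0.0845, 0.0712 and 0.0740, limma). DLK1, high only in the knockdown samples, is not counted. Calls also went to 3 of 30 imprint maintenance genes, 2 of those 16 other imprinted genes and 8 of 82 neighbours. The share of all features called was then 9.6%. NLRP5, whose mean was below 1 FPKM and which was not in the main fit, was among those 3. With a filter of 0.1 FPKM, 3 of 26 imprint maintenance genes were called, against 23.7% of all features. That filter with a pseudocount of 0.1 also gave 3 of 26, against 24.4%. NLRP5 was again among them in both settings. UBE3A (-0.035 to 0.17) and RB1CC1 (-0.055 to 0.13) changed sign when a library was left out, and ZNF445 did so under quantile normalization (0.0065); the cause was not tested. GRB10 and SGCE were called under all 14 alternatives. Single genes of the lists and single neighbours were put through the alternatives after the data were seen, and so was the count of other imprinted genes with both group means of at least 1 FPKM (7 of 16, in place of 10 of 19) chosen.

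The replicate number was not used to pair the samples in the main fit. Deviations of same-numbered samples from their group means had a correlation of -0.0099, and the labels give the numbers no shared origin. The fragment length that best fitted the depth steps was 300 bases in replicate 1 and 260 bases in replicate 2 of both groups. A shared preparation of same-numbered samples was not tested. With the replicate block 4126 features and 8 imprinted genes were called, 2 imprint maintenance genes were called, PPP1R9A (adjusted p = 0.0557), COPG2 (0.0530) and PLAGL1 (0.0902) were not, and KCNQ1 was (0.0241, all limma).

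Some imprinted genes under 1 FPKM, such as MESTIT1, rest on few fragments. KCNQ1OT1, with 91667 bases, came to an estimated 58.7 to 102 fragments per sample. Without strand or alleles neither antisense pairs nor parental copies were separated.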
